A study of Mus musculus with 46 samples.

Results

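The genes described here encode 10 chosen CC chemokines that cultured mouse macrophages transcribe: Ccl2, Ccl7, Ccl12, Ccl3, Ccl4, Ccl5, Ccl9, Ccl6, Ccl22 and Ccl24. They are the 10 genes with these symbols among 25624 symbols listed in the 4 expression tables of the series, and each was listed once in every table. All 10 passed the filter on low values, at least 1 TPM (transcripts scaled per library, corrected for gene length) in at least 2 libraries, in all 4 experiments.

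CC chemokines are small secreted proteins, named for adjacent cysteines near the amino end, that bind G-protein-coupled receptors on leukocytes and draw those cells into tissue. Macrophages that sense lipid A, the membrane anchor of bacterial lipopolysaccharide (LPS), through the receptor TLR4 transcribe several of these genes, some as direct targets of NF-kB and some also through interferon signalling. SWI/SNF complexes are ATP-driven machines that move nucleosomes and open regulatory DNA. SMARCA4 and SMARCA2 are their alternative motor subunits, ARID1A belongs to the canonical BAF form and PBRM1 to the PBAF form.

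The cells were bone marrow-derived macrophages (BMDM), and polyA+ RNA was sequenced from 2 libraries per group. In experiment 1, WT cells treated with ACBI1, BRM014 or BRDK98 were sampled after 4 hr of lipid A, with untreated WT cells at 0, 1 and 4 hr. In experiment 2, Arid1a-/- cells were sampled after 1 and 4 hr of LPS, and Arid1a f/f cells after 0, 1 and 4 hr. In experiment 3, Pbrm1-/- cells were sampled after 4 hr of lipid A, and Pbrm1 f/f cells after 4 and 0 hr. In experiment 4, cells treated with the same 3 compounds were sampled after 20 and 60 min of lipid A, with untreated WT cells at 0, 20 and 60 min. ACBI1 is a degrader of SMARCA2, SMARCA4 and PBRM1, and BRM014 blocks the ATPase of the motors SMARCA4 and SMARCA2. BRDK98 is known here only by its code. The labels call the f/f cells WT in their treatment field. They give no compound dose, no length of treatment before the stimulus, no Cre line and no age of the animals, and they do not say whether the libraries of a group came from separate cultures or animals. The p-values therefore measure the spread between libraries, which may be technical. Unstimulated treated or knockout cells were not analysed here.

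Of 46 labelled libraries 45 were used. In experiment 1 the untreated 4 hr group had 1 library, so each compound effect at 4 hr rests on the same single control library, which is assumed to vary like the other groups. The libraries held 8466037 to 31491682 mapped reads by the file headers, and 3 reads on a 1 kb transcript, the level taken as the floor, corresponded to 0.131 to 0.596 TPM. All 8 macrophage markers exceeded 1 TPM in every library, while 7 lymphocyte markers summed to at most 1.49 TPM. Replicate 1 of the untreated 1 hr group in experiment 1 stood apart: 8 stromal markers summed to 166 TPM there and to 0.646 TPM in replicate 2, with Col1a1 at up to 56.2 TPM. Granulocyte markers summed to 6.54 to 52.8 TPM in experiments 1 and 2 and to 277 to 524 TPM in experiments 3 and 4. Arid1a was at 10.2 TPM in Arid1a-/- cells and 17.8 TPM in Arid1a f/f cells at 1 hr, and at 25.7 TPM in Arid1a-/- cells and 38.5 TPM in Arid1a f/f cells at 4 hr. It fell at 1 hr (-0.80 ± 0.21 in log2) and did not pass limma's test at 4 hr (-0.56 ± 0.21, adjusted p = 0.084); the Arid1a-/- libraries still held Arid1a reads. Pbrm1 averaged 4.79 TPM in Pbrm1-/- cells and 15.2 TPM in Pbrm1 f/f cells. Its change of -1.48 ± 0.17 passed limma's test on deposited values (adjusted p = 0.026) and missed it after rescaling (adjusted p = 0.11). In bulk libraries such as these, fewer cells making a transcript and less transcript per cell cannot be told apart.

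A change is given below as the difference in log2(TPM + 1) ± its standard error. A gene is said to rise or fall only where limma's adjusted p was under 0.05 on the deposited TPM and again after the libraries were rescaled to a common median ratio, in the same direction. The added 1 TPM makes changes of Ccl22 and Ccl24, the low members, look smaller than they are.

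Of the 10 genes, 8 lie on chromosome 11 in 2 clusters of the GRCm38 (mm10) build. Ccl2 (chr11:82035577-82037452), Ccl7 (chr11:82045712-82047523) and Ccl12 (chr11:82101845-82103399) follow each other on the plus strand. Ccl5 (chr11:83525779-83530518), Ccl9 (chr11:83572917-83578636), Ccl6 (chr11:83587886-83593087) and Ccl3 (chr11:83647843-83649378) lie on the minus strand 1422 kb further on, with Ccl4 (chr11:83662584-83664683) on the plus strand beside Ccl3. Ccl22 (chr8:94745684-94751388) and Ccl24 (chr5:135569937-135573043 in experiments 1 and 3) lie apart. Reads were counted over exons without regard to strand. Gm17268 is annotated across Ccl2 and E230016K23Rik across Ccl6, each on the opposite strand. Reads of unspliced RNA from these 2 genes cannot be told from reads of Ccl2 and Ccl6 there. Of 2957 stretches of 50 bases in the longest Ccl9 transcript 59 also occurred in transcripts of other genes, searched on both strands. For the other 9 genes none did, Ccl2 and Ccl6 included.

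Ccl9 and Ccl6 are neighbours 9.25 kb apart on the same strand, and they behaved differently when the cells were stimulated, as described below. Ccl12 was one of the genes most lowered by BRM014 and BRDK98. For these 3 genes the 250 bases just upstream of the RefSeq gene start (GRCm38.p6) are printed 5′ to 3′ on the gene's own strand. The capitals mark the NF-kB consensus and the TATA box (TATAAA), each searched on both strands. The windows are chr11:82101595-82101844 for Ccl12, chr11:83578637-83578886 for Ccl9 and chr11:83593088-83593337 for Ccl6.
Ccl12: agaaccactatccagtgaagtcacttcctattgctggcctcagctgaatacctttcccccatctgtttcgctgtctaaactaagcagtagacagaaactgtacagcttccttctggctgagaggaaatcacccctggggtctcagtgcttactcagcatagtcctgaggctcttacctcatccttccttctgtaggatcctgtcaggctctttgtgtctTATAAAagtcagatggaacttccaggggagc
Ccl9: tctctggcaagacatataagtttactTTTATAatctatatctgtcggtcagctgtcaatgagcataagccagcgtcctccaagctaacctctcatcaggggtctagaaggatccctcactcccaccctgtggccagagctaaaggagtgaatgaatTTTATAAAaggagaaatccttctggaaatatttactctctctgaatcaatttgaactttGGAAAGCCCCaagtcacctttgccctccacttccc
Ccl6: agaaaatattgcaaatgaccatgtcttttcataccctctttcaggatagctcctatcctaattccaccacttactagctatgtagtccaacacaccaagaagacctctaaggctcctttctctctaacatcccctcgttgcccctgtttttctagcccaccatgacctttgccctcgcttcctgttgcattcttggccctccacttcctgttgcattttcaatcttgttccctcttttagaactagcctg
RefSeq windows were at hand for these genes and for Ccl3 and Ccl22, 5 of the 10. The NF-kB consensus occurred once, in Ccl9, starting at position -35 from the gene start, and 3.90% of 32851 mouse windows of this length hold it. Ccl9 also held an AP-1 motif (TGANTCA) at -53, which 6.75% of the windows hold. TATA boxes occurred in Ccl12 at -31 and in Ccl9 at -224, -94 and -92, the last 2 overlapping, and 12.4% of the windows hold one. None of the 5 windows held an interferon response element (a pair of GAAA words 2 bases apart), a STAT (TTCNNNGAA) or a C/EBP (TTGCNNAA) motif. The letters alone do not show that a factor binds there.

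In resting cells the 10 transcripts made up 0.164% to 0.346% of the summed TPM of a library. Ccl6, a ligand of CCR1 known from rodents, was the most abundant, at 867 and 708 TPM in experiment 1, 469.5 and 515 TPM in experiment 2, 1217 and 1133 TPM in experiment 3 and 659 and 592 TPM in experiment 4. Ccl9, another rodent ligand of CCR1, came second in every resting library, and was at 331 and 283 TPM in experiment 4. Ccl22, a CCR4 ligand that draws T helper and regulatory T cells, was the lowest member in every experiment and at most 0.550 TPM at rest. In the resting Arid1a f/f cells of experiment 2 it was counted by 1 and 0 reads. These cells also had less Ccl12 (0.782 and 1.19 TPM) than the resting cells of the other tables, whose Ccl12 ran between 46.0 and 86.0 TPM. The tables were normalised separately, so this difference was not tested.

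Stimulation raised every member but Ccl6 by the last time point of each experiment, and the share of the 10 transcripts in all TPM reached 4.08% and 4.16% after 1 hr of lipid A in experiment 1. In that experiment 9 of 10 rose at 1 hr, against 9.9% of all genes, and 9 rose at 4 hr, against 20.1%. In Arid1a f/f cells under LPS 8 rose at 1 hr (13.6% of all genes) and 9 at 4 hr (17.9%). In Pbrm1 f/f cells 9 rose at 4 hr of lipid A (16%), and in experiment 4 9 rose at 60 min (7.47%). The count at 1 hr in experiment 1 was 9 with and without replicate 1, the library with stromal transcripts. Each table's stimulus also shifted the median of all genes, by -0.84 at 4 hr in experiment 1, -0.63 in experiment 2, -0.75 in experiment 3 and -0.33 at 60 min in experiment 4, so changes under about that size are relative to a lowered background. The 8 dendritic cell markers, 1 or 2 of them at 1 TPM or more and up to 5 at 0, summed to 214 and 156 TPM at rest, 119 and 106 TPM at 1 hr and 18.1 TPM at 4 hr in experiment 1. In experiment 2 they summed to 17.9 and 22.8 TPM at rest, 18.8 and 16.3 TPM at 1 hr and 8.48 and 6.18 TPM at 4 hr, and in experiment 3 to 58.1 and 35.9 TPM at 4 hr, against 164 and 144 TPM at rest. Most of each sum was Clec10a, a lectin gene that alternatively activated macrophages also express, and no other gene of the list passed 9.18 TPM in any library. The part of such cells in the stimulus responses was not tested.

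**Figure D1:**
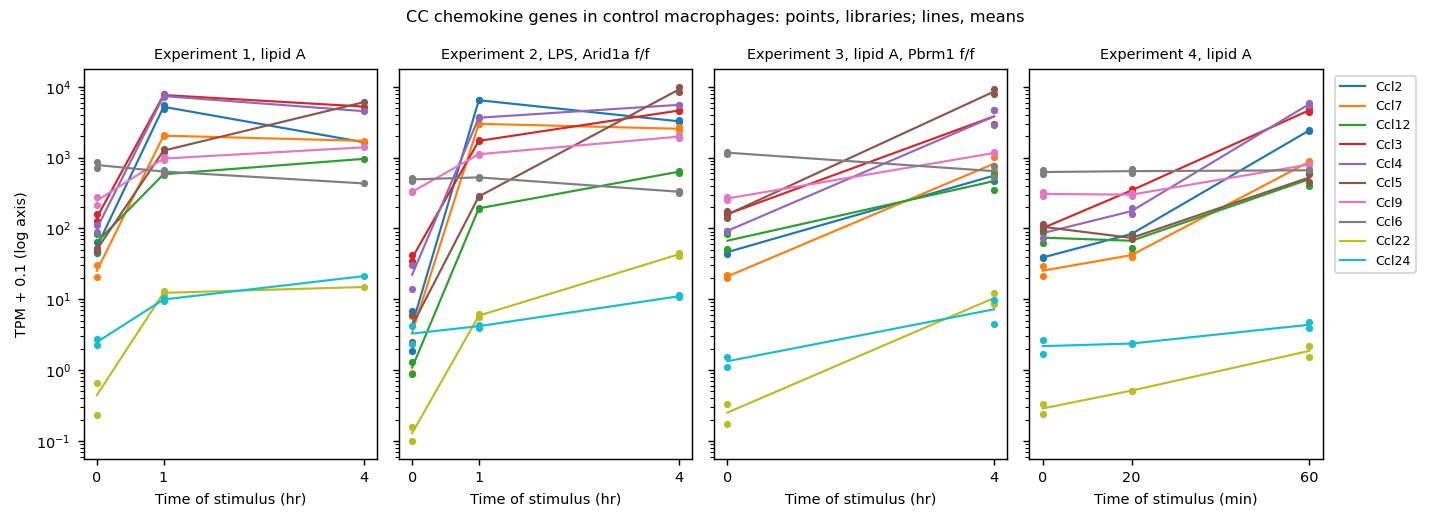
TPM plus 0.1 (log axis) of the 10 CC chemokine genes in untreated or f/f control cells against time of stimulus, 1 panel per experiment. Points are libraries and lines join group means. Ccl6 (grey) stays between 319 and 1217 TPM while the means of the other 9 genes end above their resting level in each panel, and Ccl5 (brown) climbs steeply between 1 and 4 hr.

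Between 1 and 4 hr 5 members changed in experiment 1 (57.6% of all genes) and 6 in Arid1a f/f cells (50.1%). Ccl2, Ccl7 and Ccl12, the monocyte attractants that act on CCR2, took different courses. Ccl2 was at 65.2 and 44.8 TPM at rest, 4875 and 5566 TPM at 1 hr and 1652 TPM at 4 hr of lipid A in experiment 1. It rose by 6.56 ± 0.19 in log2 at 1 hr and then fell between 1 and 4 hr (-1.66 ± 0.23). Both 1 hr libraries were above the single 4 hr library, and no library of the 3 times overlapped another time. In Arid1a f/f cells Ccl2 was at 6.74 and 1.73 TPM at rest, 6435 and 6507 TPM at 1 hr and 3171 and 3349.9 TPM at 4 hr, where the later difference did not pass the test (-0.99 ± 0.44). With the resting libraries left out of the fit, a choice made after the values were seen, Ccl2 fell (-0.99 ± 0.07), Ccl4 rose (0.60 ± 0.11) and 8 members passed between 1 and 4 hr, with 50.1% of all genes. Ccl7 was at 30.0 and 20.3 TPM at rest, 2092 and 1990.5 TPM at 1 hr and 1727 TPM at 4 hr in experiment 1, a plateau within the test's error (-0.24 ± 0.22 between 1 and 4 hr). Ccl12 went on rising between 1 and 4 hr in experiment 1 (0.72 ± 0.28) and in Arid1a f/f cells (1.71 ± 0.12). In Arid1a f/f cells it was at 189 and 195 TPM at 1 hr and 608 and 657 TPM at 4 hr.

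Ccl3 and Ccl4, which attract natural killer and T cells as well as monocytes, were the most abundant members after 1 hr of lipid A. Ccl3 was at 159 and 126 TPM at rest, 7509 and 7801 TPM at 1 hr and 5263 TPM at 4 hr in experiment 1, and Ccl4 was at 113 and 87.7 TPM at rest, 7623 and 7182 TPM at 1 hr and 4534 TPM at 4 hr. The 1 hr values of both genes overlapped each other. After 1 hr of LPS in Arid1a f/f cells the order was another one, with Ccl2 first, then Ccl4 (3751 and 3572 TPM), Ccl7 (3000.1 and 3013 TPM) and Ccl3 (1748 and 1702 TPM), and no neighbours in that order overlapped. Ccl3 exceeded Ccl4 in all resting libraries, while at 60 min in experiment 4 Ccl4 (5973 and 5459.8 TPM) exceeded Ccl3 (4879 and 4479 TPM). Both were already raised at 20 min, when 4 of 10 members rose against 0.736% of all genes. Ccl3 rose most by then (1.76 ± 0.10; 361 and 328 TPM at 20 min, against 104 and 97.2 TPM at 0 min), followed by Ccl2 (1.09 ± 0.08), Ccl4 (1.03 ± 0.16) and Ccl7 (0.72 ± 0.14). Without replicate 1 of the untreated 20 min group 2 members rose. At 60 min Ccl4 and Ccl3 were followed by Ccl2, Ccl7, Ccl9, Ccl6, Ccl5, Ccl12, Ccl24 and Ccl22, and among neighbours in that order only Ccl5 and Ccl12 had overlapping libraries.

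Ccl5, which attracts T cells and monocytes and is induced by interferon as well as NF-kB, was the late gene of the set. In Arid1a f/f cells it was at 5.92 and 2.40 TPM at rest, 281 and 284 TPM at 1 hr and 8355 and 9936 TPM at 4 hr of LPS. It rose by 5.01 ± 0.33 between 1 and 4 hr there and by 2.27 ± 0.11 in experiment 1, the largest such change among the members in both experiments. At 20 min it was at 76.9 and 69.9 TPM, against 115 and 95.9 TPM at 0 min, a difference that did not pass (-0.51 ± 0.15). By 4 hr Ccl5 was the most abundant member in all 3 experiments, at 6059.7 TPM in experiment 1 and 9180.5 and 7971 TPM in Pbrm1 f/f cells, and its libraries did not overlap those of the next gene, Ccl3 or Ccl4.

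Ccl9 rose at each time except 20 min, by 1.98 ± 0.12 at 1 hr and 2.51 ± 0.15 at 4 hr in experiment 1. Ccl6, its neighbour, was at 867 and 708 TPM at rest, 678 and 595 TPM at 1 hr and 433 TPM at 4 hr in that experiment. Its difference of -0.86 ± 0.14 at 4 hr passed on the deposited TPM only and was 0.13 after rescaling, so no direction is given. Ccl22 rose in every experiment, at each time except 20 min, most in Arid1a f/f cells at 4 hr of LPS (41.0 and 45.0 TPM; 5.42 ± 0.16). Ccl24, a CCR3 ligand that attracts eosinophils and is a marker of alternatively activated macrophages, rose less, and after 1 hr of LPS and 20 min of lipid A it did not pass. It was at 2.63 and 2.13 TPM at rest, 9.45 and 10.2 TPM at 1 hr and 21.1 TPM at 4 hr in experiment 1.

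The next comparisons ask how each compound and the loss of Arid1a or Pbrm1 changed the chemokine genes in stimulated cells. At 60 min of lipid A the 10 transcripts made up 2.70% and 2.77% of TPM in ACBI1 cells, 1.85% and 2.16% in BRM014 cells and 0.890% and 0.908% in BRDK98 cells, against 2.80% and 2.99% in untreated cells.

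**Figure D2:**
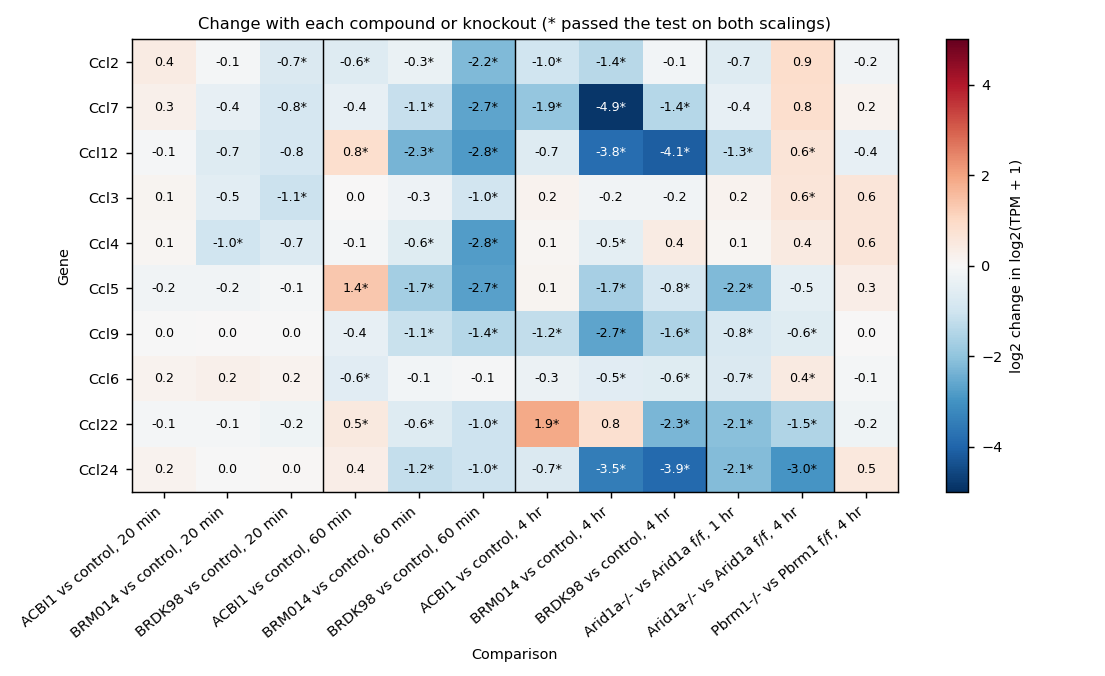
Difference in log2(TPM + 1) between perturbed and control cells for the 10 genes (down the page) in 12 comparisons (across). Red is higher and blue lower in the perturbed cells, and an asterisk marks differences that passed the test on both scalings. The BRDK98 column at 60 min is blue for 9 genes, while the ACBI1 column at 60 min holds 3 raised and 2 lowered genes.

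With BRDK98 at 60 min, 9 of 10 members fell, against 5.53% of all genes that fell. Ccl4 was at 822 and 827 TPM in BRDK98 cells and 5973 and 5459.8 TPM in untreated cells (-2.79 ± 0.16), a 6.93-fold lower mean. Ccl5 was at 70.9 and 86.0 TPM in BRDK98 cells and 596 and 452 TPM in untreated cells (-2.72 ± 0.15). On the deposited TPM the BRDK98 libraries had less Ccl5 than both resting libraries of this experiment (115 and 95.9 TPM), a comparison that was not tested. The rescaling factors were 0.929 and 0.932 for the BRDK98 libraries and 1.17 and 1.14 at rest, and after rescaling the ranges overlap. Untreated libraries of 20 min were also below the resting ones in Ccl5 on the deposited TPM, at 76.9 and 69.9 TPM. Ccl7 was at 139 and 138 TPM in BRDK98 cells and 862 and 891 TPM in untreated cells (-2.66 ± 0.14), and Ccl2 at 523 and 513 TPM in BRDK98 cells against 2414 and 2441 TPM in untreated cells (-2.23 ± 0.08). Ccl12 fell by a similar amount (-2.82 ± 0.28) to 60.1 and 76.6 TPM in BRDK98 cells, against 598 and 394 TPM in untreated cells. Ccl3 also fell (-0.96 ± 0.10), at 2407 and 2393 TPM in BRDK98 cells and 4879 and 4479 TPM in untreated cells. Ccl9 (-1.42 ± 0.09), Ccl22 (-1.04 ± 0.16) and Ccl24 (-1.03 ± 0.18) fell too, Ccl22 on 14 and 4 reads in BRDK98 cells. Ccl6 was at 597 and 667 TPM in BRDK98 cells and 659 and 666 TPM in untreated cells, overlapping ranges (-0.07 ± 0.08, 95% interval -0.25 to 0.11).

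With BRM014 at 60 min, 8 members fell, against 13.4% of all genes. The largest difference was in Ccl12, at 111 and 84.9 TPM in BRM014 cells and 598 and 394 TPM in untreated cells (-2.31 ± 0.28). Ccl5 was next, at 166 and 155 TPM in BRM014 cells and 596 and 452 TPM in untreated cells (-1.69 ± 0.15). Ccl7 (-1.14 ± 0.14), Ccl9 (-1.11 ± 0.09) and Ccl24 (-1.19 ± 0.18) fell by about 1 log2 unit, and Ccl4 (-0.62 ± 0.16), Ccl22 (-0.64 ± 0.16) and Ccl2 (-0.32 ± 0.08) by less. Ccl3, at 4317 and 3508 TPM in BRM014 cells and 4879 and 4479 TPM in untreated cells, missed the threshold (-0.26 ± 0.10).

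With ACBI1 at 60 min, members moved both ways: 3 rose and 2 fell, with 25.2% of all genes passing. Ccl5 rose to 1282 and 1389 TPM in ACBI1 cells, against 596 and 452 TPM in untreated cells (1.36 ± 0.15). Ccl12 rose to 835 and 919 TPM in ACBI1 cells, against 598 and 394 TPM in untreated cells (0.85 ± 0.28). Ccl22 also rose, to 3.25 and 2.55 TPM in ACBI1 cells, against 1.45 and 2.08 TPM in untreated cells (0.50 ± 0.16). Ccl2 fell, at 1619 and 1497 TPM in ACBI1 cells and 2414 and 2441 TPM in untreated cells (-0.64 ± 0.08), and so did Ccl6, at 440.2 and 458 TPM in ACBI1 cells and 659 and 666 TPM in untreated cells (-0.56 ± 0.08). Ccl3 (0.02 ± 0.10, 95% interval -0.19 to 0.23) and Ccl4 (-0.11 ± 0.16, 95% interval -0.46 to 0.23) did not pass. Ccl7 was at 717 and 607 TPM in ACBI1 cells, against 862 and 891 TPM in untreated cells. Ccl9 was at 595 and 616 TPM in ACBI1 cells, against 793 and 808 TPM in untreated cells. Neither these nor Ccl24 passed on both scalings, though the libraries did not overlap for Ccl7 and Ccl9. Leaving out any 1 library of either group left 2 or 3 members past the test: 2 without ACBI1 replicate 1, and 3 without ACBI1 replicate 2 or either untreated library. The median of all genes shifted by -0.14 in this comparison. The 8 granulocyte markers, 7 of them at 1 TPM or more in every library, summed to 277 and 292 TPM in ACBI1 cells, against 434 and 454 TPM in untreated cells. The 8 dendritic cell markers, of which at most 2 reached 1 TPM and none was at 0, summed to 97.6 and 99.1 TPM in ACBI1 cells, against 172 and 159 TPM in untreated cells. The part of such cells in these differences was not tested.

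**Figure D3:**
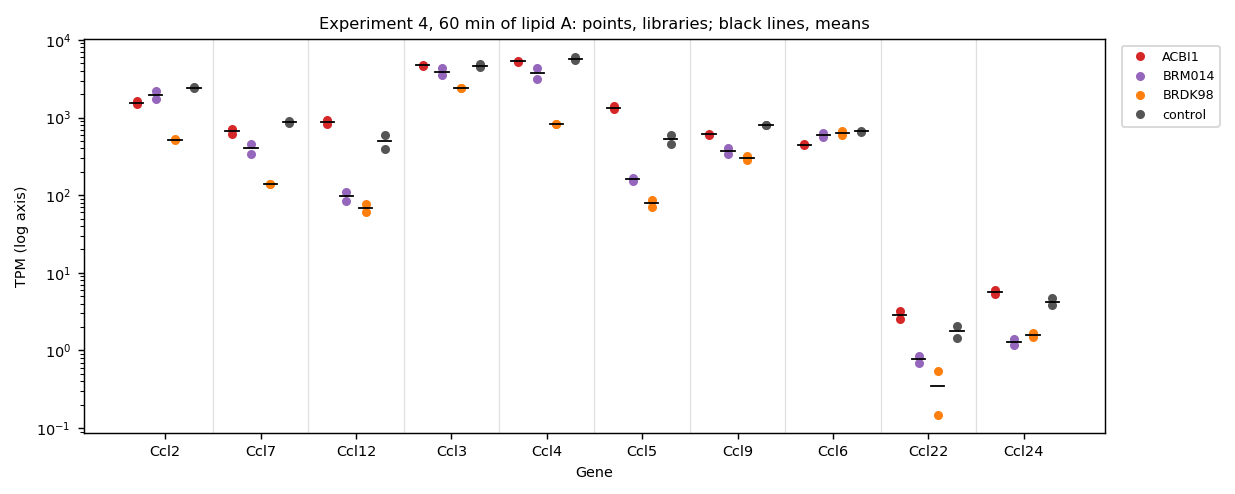
TPM (log axis) of each gene at 60 min of lipid A in experiment 4. Each point is a library, black lines are group means, and the groups run ACBI1, BRM014, BRDK98, control from left to right within a gene. BRDK98 points (orange) lie lowest for Ccl2, Ccl7, Ccl12, Ccl3, Ccl4, Ccl5, Ccl9 and Ccl22, ACBI1 points (red) lie highest for Ccl5, Ccl12, Ccl22 and Ccl24, and the ACBI1 points lie lowest for Ccl6.

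At 20 min the compounds had changed few genes of any kind. BRDK98 lowered 3 members, Ccl3 (-1.08 ± 0.10), Ccl7 (-0.84 ± 0.14) and Ccl2 (-0.74 ± 0.08), against 0.849% of all genes that fell. Ccl3 was at 156 and 167 TPM in BRDK98 cells, against 361 and 328 TPM in untreated cells and 104 and 97.2 TPM before stimulation. All 3 are among the 4 genes that lipid A had raised by 20 min. Both comparisons use the same untreated libraries of 20 min, so the overlap of their calls is not separate evidence. Ccl4, also raised by lipid A, was at 112 and 107 TPM in BRDK98 cells and 194 and 157 TPM in untreated cells. The libraries did not overlap, but Ccl4 did not pass on both scalings. The authors' deposited table gives it a log2 fold change of -0.66 with BRDK98 at 20 min. BRM014 lowered Ccl4 alone (-0.98 ± 0.16; 0.329% of all genes), at 98.6 and 79.0 TPM in BRM014 cells and 194 and 157 TPM in untreated cells. That call was lost without any 1 library other than the resting ones and the BRM014 libraries of 60 min, and without either of the BRM014 libraries of 60 min the count was 2. Ccl3, at 261 and 222 TPM in BRM014 cells and 361 and 328 TPM in untreated cells, did not overlap but did not pass on both scalings. With BRM014 at 20 min 5 members (Ccl3, Ccl4, Ccl6, Ccl7 and Ccl12) and 1061 genes had an unadjusted p under 0.05 in limma's fit on the deposited values. With ACBI1 none of the 10 passed limma's test on both scalings (0.147% of all genes), while 1 member, Ccl2, and 675 genes had an unadjusted p under 0.05. Limma voom on recovered reads called 1 member there, and so did the fit without either BRM014 library of 60 min. The change of each compound's effect between 20 and 60 min passed for 3 members with ACBI1 (18.5% of all genes), 5 with BRM014 (13.3%) and 8 with BRDK98 (6.66%). At 20 min Ccl2 was at 107 and 114 TPM in ACBI1 cells and 84.7 and 82.5 TPM in untreated cells (0.40 ± 0.08).

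At 4 hr the changes of experiment 1 differed by compound and by gene. Rescaling mattered here: the median of all genes was 0.25 higher with ACBI1, 0.43 with BRM014 and 0.46 with BRDK98 on the deposited scale, and the changes that follow are on that scale. The 8 granulocyte markers, 3 or 4 at 1 TPM or more and 2 or 3 at 0, summed to 31.3 and 24.4 TPM in ACBI1 cells, 52.8 and 43.3 TPM in BRM014 cells and 6.60 and 6.54 TPM in BRDK98 cells, against 21.6 TPM in the untreated library. The 8 dendritic cell markers, 2 at 1 TPM or more and 1 to 3 at 0, summed to 27.8 and 29.4 TPM in ACBI1 cells, 36.7 and 35.9 TPM in BRM014 cells and 18.1 and 16.7 TPM in BRDK98 cells, against 18.1 TPM in the untreated library. The part of such cells in the changes at 4 hr was not tested.

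BRM014 lowered 8 members at 4 hr, against 16.4% of all genes. Ccl7 was at 54.2 and 61.4 TPM in BRM014 cells and 1727 TPM in the untreated library (-4.88 ± 0.22), a 29.9-fold lower mean. Ccl12 was at 66.7 and 68.0 TPM in BRM014 cells against 961 TPM in the untreated library (-3.81 ± 0.28). Ccl2, from the same cluster, kept more of its level: it was at 686 and 595 TPM in BRM014 cells and 1652 TPM in the untreated library (-1.37 ± 0.23). Ccl24 was at 1.05 and 0.973 TPM in BRM014 cells and 21.1 TPM in the untreated library (-3.46 ± 0.18). Ccl9 (-2.66 ± 0.15), Ccl5 (-1.68 ± 0.11), Ccl6 (-0.55 ± 0.14) and Ccl4 (-0.50 ± 0.14) fell as well. Ccl3, at 4570.0 and 4745 TPM in BRM014 cells and 5263 TPM in the untreated library, did not pass on the deposited values (-0.18 ± 0.13, and -0.76 after rescaling). Ccl22 was higher in both BRM014 libraries, at 28.7 and 25.1 TPM, against 14.8 TPM in the untreated library, but this passed on the deposited values only (0.82 ± 0.19, and 0.26 after rescaling).

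BRDK98 lowered 7 members at 4 hr, against 12.4% of all genes. Ccl12 was at 51.7 and 56.5 TPM in BRDK98 cells and 961 TPM in the untreated library (-4.13 ± 0.28), and Ccl24 at 0.639 and 0.385 TPM in BRDK98 cells and 21.1 TPM in the untreated library (-3.87 ± 0.18). Ccl22 was at 2.08 and 2.46 TPM in BRDK98 cells and 14.8 TPM in the untreated library (-2.28 ± 0.19). These 3 genes were the most lowered, and Ccl9 (-1.55 ± 0.15), Ccl7 (-1.42 ± 0.22), Ccl5 (-0.84 ± 0.11) and Ccl6 (-0.62 ± 0.14) fell less. Ccl4, which BRDK98 had lowered 6.93-fold at 60 min in experiment 4, was at 5915 and 6220.0 TPM in BRDK98 cells and 4534 TPM in the untreated library at 4 hr. Its difference was 0.42 ± 0.14 on the deposited scale and -0.23 after rescaling, so no direction holds. Ccl2 was at 1530.2 and 1497 TPM in BRDK98 cells and 1652 TPM in the untreated library and did not pass on the deposited scale (-0.13 ± 0.23). Ccl3, at 4535 and 4667 TPM in BRDK98 cells and 5263 TPM in the untreated library, did not pass there either. The authors' deposited table, which is scaled otherwise, gives log2 fold changes of -0.71 for Ccl2 and -0.78 for Ccl3. The 60 min and 4 hr values come from separate experiments, and the difference between the times was not tested.

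ACBI1 lowered 4 members and raised 1 at 4 hr, with 33.4% of all genes passing. Ccl22 rose to 56.0 and 58.7 TPM in ACBI1 cells, against 14.8 TPM in the untreated library (1.88 ± 0.19). Ccl7 fell to 522 and 401 TPM in ACBI1 cells, against 1727 TPM in the untreated library (-1.91 ± 0.22). Ccl9 (-1.23 ± 0.15), Ccl2 (-0.997 ± 0.23) and Ccl24 (-0.71 ± 0.18) fell too. Ccl5, which ACBI1 had raised at 60 min, was at 6550.5 and 6867 TPM in ACBI1 cells and 6059.7 TPM in the untreated library (0.15 ± 0.11) and did not pass. Ccl12, at 658 and 566 TPM in ACBI1 cells and 961 TPM in the untreated library, did not pass (-0.65 ± 0.28), and neither did Ccl3 (0.16 ± 0.13) or Ccl4 (0.11 ± 0.14). Ccl6, at 379 and 332 TPM in ACBI1 cells and 433 TPM in the untreated library, did not pass either. The sign of the small differences depends on the scale. The authors' deposited table gives log2 fold changes of -0.17 for Ccl5, -0.15 for Ccl3, -0.20 for Ccl4, -0.97 for Ccl12 and -0.60 for Ccl6.

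**Figure D4:**
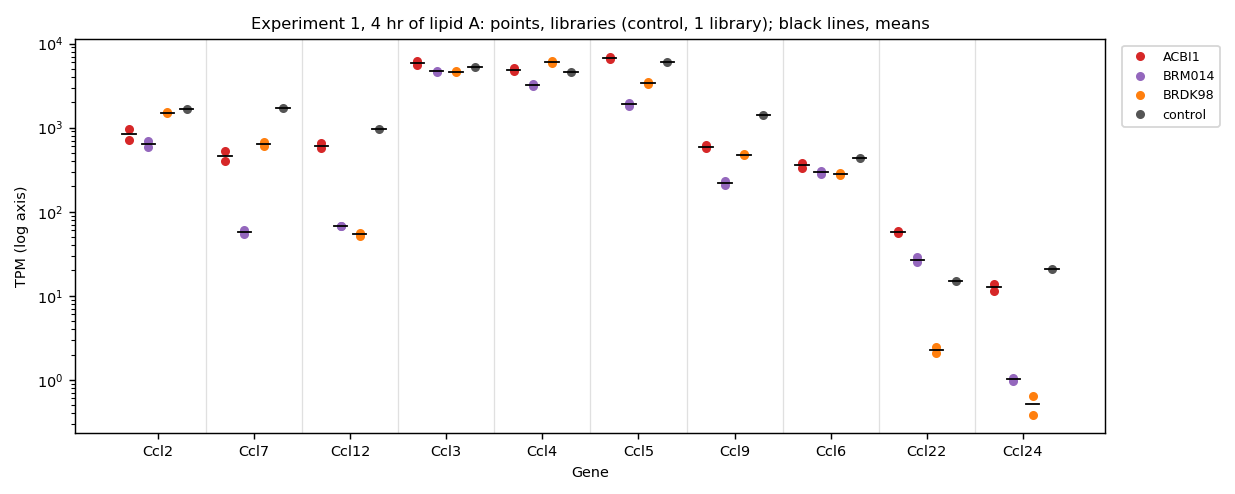
TPM (log axis) of each gene at 4 hr of lipid A in experiment 1, with groups ACBI1, BRM014, BRDK98 and control from left to right within a gene. Points are libraries, the control has 1, and black lines are means. Ccl7 is lowest with BRM014 (54.2 and 61.4 TPM), Ccl12 and Ccl24 are low with both BRM014 and BRDK98, and Ccl22 is highest with ACBI1 and lowest with BRDK98.

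The compounds were also set against each other at matched times, 6 pairs in all and 10 genes in each, with p-values adjusted over all genes of a pair. BRM014 cells had less of 8 members than ACBI1 cells at both times, against 14.1% of all genes at 4 hr and 19.6% at 60 min. At 60 min the difference was -3.16 ± 0.28 for Ccl12 and -3.05 ± 0.15 for Ccl5. At 4 hr it was -3.16 ± 0.23 for Ccl12, -2.97 ± 0.18 for Ccl7 and -2.75 ± 0.15 for Ccl24. BRDK98 cells had less of 9 members than ACBI1 cells at 60 min (14.3% of all genes), with Ccl5 at -4.08 ± 0.15 and Ccl12 at -3.67 ± 0.28. At 4 hr BRDK98 cells had less of 7 members and more of 1, Ccl2 (0.87 ± 0.19), than ACBI1 cells (36.5% of all genes). Ccl22 differed most, at -4.16 ± 0.15. That count was 5 without ACBI1 replicate 1 and 4 without either BRDK98 library.

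Between BRDK98 and BRM014 the order differed by gene and between 60 min (experiment 4) and 4 hr (experiment 1). The times come from separate experiments, and the change of order was not tested. At 60 min BRDK98 cells had less of 6 members (12.3% of all genes), led by Ccl4 (-2.17 ± 0.16) and Ccl2 (-1.91 ± 0.08). At 4 hr BRDK98 cells had more of 5, Ccl7 (3.46 ± 0.18), Ccl2 (1.24 ± 0.19), Ccl9 (1.11 ± 0.12), Ccl4 (0.92 ± 0.11) and Ccl5 (0.84 ± 0.09), and less of 2, Ccl22 (-3.09 ± 0.15) and Ccl24 (-0.42 ± 0.15), with 45.2% of all genes passing. Ccl12, low with both compounds, did not differ past the test at 60 min (-0.51 ± 0.28, 95% interval -1.13 to 0.11) or at 4 hr (-0.31 ± 0.23, 95% interval -0.83 to 0.21).

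Experiment 2 asked what loss of Arid1a did under LPS. At 1 hr 6 of 10 members fell in Arid1a-/- cells, against 16.8% of all genes, and none rose. Ccl24 was counted by 2 and 1 reads (0.197 and 0.0880 TPM) in Arid1a-/- cells, under the floor of 3 reads, and by 48 and 48 reads (4.26 and 3.88 TPM) in Arid1a f/f cells (-2.15 ± 0.19). Its summed reads in Arid1a-/- cells were 3.46% of those in Arid1a f/f cells after allowing for depth (exact 95% interval 0.701% to 10.4%, counting error only). Ccl22 was at 0.565 and 0.629 TPM in Arid1a-/- cells and 6.09 and 5.43 TPM in Arid1a f/f cells (-2.08 ± 0.16). Ccl5 was at 69.6 and 53.2 TPM in Arid1a-/- cells and 281 and 284 TPM in Arid1a f/f cells (-2.20 ± 0.33), a 4.60-fold lower mean. Ccl12 (-1.26 ± 0.12), Ccl9 (-0.81 ± 0.07) and Ccl6 (-0.72 ± 0.10) fell by smaller amounts. Ccl3, at 2162 and 1761 TPM in Arid1a-/- cells and 1748 and 1702 TPM in Arid1a f/f cells, did not pass (0.18 ± 0.11). Ccl4, at 4420.3 and 3447 TPM in Arid1a-/- cells and 3751 and 3572 TPM in Arid1a f/f cells, did not pass either (0.09 ± 0.32). The 8 dendritic cell markers, 1 of them at 1 TPM or more and 2 to 5 at 0, summed to 6.19 and 5.45 TPM in Arid1a-/- cells, against 18.8 and 16.3 TPM in Arid1a f/f cells, and the part of such cells was not tested.

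At 4 hr the share of TPM taken by the 10 transcripts was 5.63% and 5.87% in Arid1a-/- cells, against 4.64% and 4.87% in Arid1a f/f cells. Of the members 3 rose and 3 fell, with 24.8% of all genes passing. Ccl12 rose, at 911 and 1073 TPM in Arid1a-/- cells and 608 and 657 TPM in Arid1a f/f cells (0.65 ± 0.12), the opposite direction to 1 hr. Ccl3 rose, at 7047 and 7038 TPM in Arid1a-/- cells and 4612 and 4632 TPM in Arid1a f/f cells (0.61 ± 0.11). Ccl6 rose, at 401 and 494 TPM in Arid1a-/- cells and 341 and 319 TPM in Arid1a f/f cells (0.43 ± 0.10), also opposite to 1 hr. The genes that fell at both times were Ccl24, Ccl22 and Ccl9. Ccl24 was at 0.638 and 0.448 TPM in Arid1a-/- cells and 10.6 and 11.2 TPM in Arid1a f/f cells (-2.95 ± 0.19), a 20.1-fold lower mean. Ccl22 was at 17.2 and 12.05 TPM in Arid1a-/- cells and 41.0 and 45.0 TPM in Arid1a f/f cells (-1.51 ± 0.16), and Ccl9 was at 1353 and 1273 TPM in Arid1a-/- cells and 2063 and 1896 TPM in Arid1a f/f cells (-0.59 ± 0.07).

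**Figure D5:**
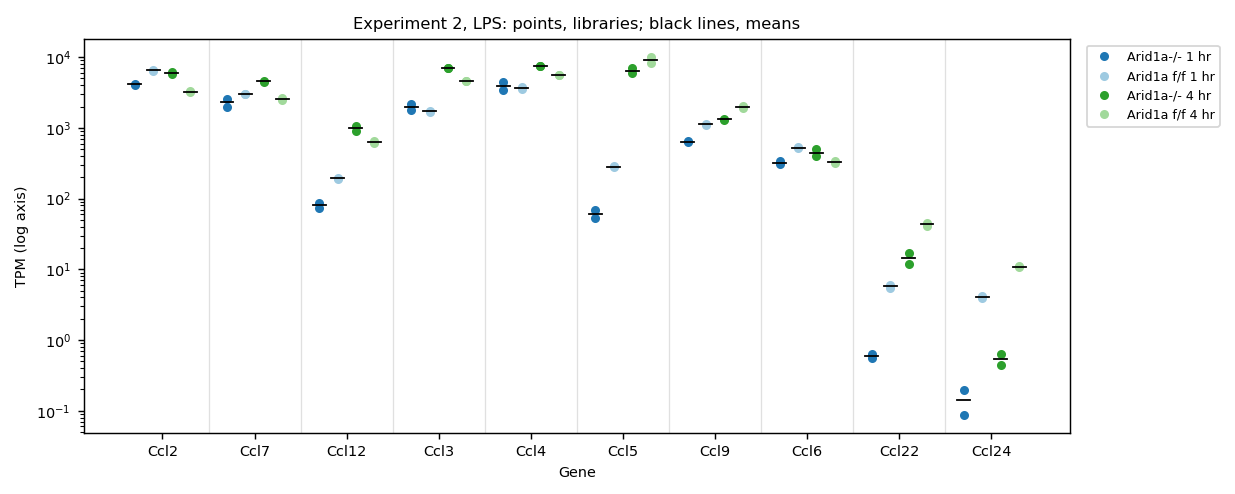
TPM (log axis) of each gene in experiment 2, with Arid1a-/- and Arid1a f/f cells at 1 hr of LPS (blue and light blue) and at 4 hr (green and light green). Points are libraries and black lines are means. Arid1a-/- points lie below the f/f points for Ccl24, Ccl22 and Ccl9 at both times, and for Ccl12 and Ccl6 they lie below at 1 hr and above at 4 hr.

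Ccl2 and Ccl7 were higher in both Arid1a-/- libraries at 4 hr, but did not pass in the fit of all 10 libraries. Ccl2 was at 5781 and 6068 TPM in Arid1a-/- cells and 3171 and 3349.9 TPM in Arid1a f/f cells (0.86 ± 0.44), and Ccl7 was at 4474 and 4601 TPM in Arid1a-/- cells and 2672 and 2443 TPM in Arid1a f/f cells (0.83 ± 0.57). That fit shares 1 estimate of spread with the resting f/f libraries, in which Ccl2 was at 6.74 and 1.73 TPM and Ccl7 at 5.75 and 0.795 TPM, several-fold apart. With the resting libraries left out, a choice made after seeing these values, the same differences were 0.86 ± 0.07 for Ccl2 and 0.83 ± 0.11 for Ccl7, both past limma's test, and 4 members rose and 4 fell at 4 hr, with 23.4% of all genes passing. Ccl5 (-0.51 ± 0.14) was among those that fell, and Ccl6 did not pass in that fit. At 1 hr Ccl2 (-0.66 ± 0.07) and Ccl7 (-0.40 ± 0.11) then joined the 6 that fell, against 15.5% of all genes that fell in that fit. In the fit of all libraries the count at 4 hr was 3 without Arid1a-/- replicate 2 and 3 without replicate 1 of the Arid1a f/f cells at 4 hr.

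The change of the Arid1a-/- effect between 1 and 4 hr was tested directly. It passed for Ccl12 (1.90 ± 0.17) and Ccl6 (1.15 ± 0.15), against 15.9% of all genes. Ccl5, -2.20 ± 0.33 at 1 hr and -0.51 ± 0.33 at 4 hr, gave 1.69 ± 0.46 with limma's adjusted p of 0.055 and did not pass. With both resting libraries left out 6 members passed (13.6% of all genes), Ccl5 (1.69 ± 0.20) and Ccl2 (1.52 ± 0.10) among them, and 6 passed without either of them alone.

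In Pbrm1-/- cells none of the 10 members passed the test at 4 hr of lipid A by limma or by limma voom on recovered reads, and of all 11044 genes 1 did in limma's test, Snora68, or 0.00905%. In limma's fit on the deposited values 2 members, Ccl3 and Ccl4, had an unadjusted p under 0.05, as did 1148 genes. Ccl3 was at 4962 and 6368 TPM in Pbrm1-/- cells and 4680.0 and 2969 TPM in Pbrm1 f/f cells (0.59 ± 0.22, 95% interval 0.09 to 1.10). Ccl4 was at 5230.3 and 6127 TPM in Pbrm1-/- cells and 4769 and 2877 TPM in Pbrm1 f/f cells (0.61 ± 0.23, 95% interval 0.10 to 1.12). The Pbrm1 f/f libraries differed from each other more than the Pbrm1-/- libraries did for every member except Ccl5 and Ccl9, so also for Ccl3 and Ccl4. Ccl24 was at 9.77 and 10.2 TPM in Pbrm1-/- cells and 9.79 and 4.43 TPM in Pbrm1 f/f cells. Without replicate 1 of the Pbrm1 f/f cells at 4 hr 4 members were higher, Ccl3, Ccl4, Ccl7 and Ccl24, with the lone f/f library taken to vary like the other groups. Ccl5 was at 9224 and 12717 TPM in Pbrm1-/- cells and 9180.5 and 7971 TPM in Pbrm1 f/f cells (0.34 ± 0.19). Ccl12 was at 348 and 329 TPM in Pbrm1-/- cells and 351 and 582 TPM in Pbrm1 f/f cells (-0.42 ± 0.29). Differences were -0.17 ± 0.18 for Ccl2, 0.18 ± 0.21 for Ccl7, 0.03 ± 0.14 for Ccl9, -0.12 ± 0.19 for Ccl6, -0.22 ± 0.20 for Ccl22 and 0.52 ± 0.30 for Ccl24. The 8 granulocyte markers, 5 at 1 TPM or more and none at 0, summed to 314 and 342 TPM in Pbrm1-/- cells, against 436 and 524 TPM in Pbrm1 f/f cells, and the part of such cells was not tested.

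The receptors and the regulators of these chemokines were followed in lists chosen for the pathway. Of 15 receptors, a list of CC chemokine and atypical receptors that also holds the fractalkine receptor Cx3cr1, 6 were expressed enough to be tested in experiments 1, 2 and 4. Ccrl2, an atypical receptor that does not signal for migration, rose with stimulation, by 5.70 ± 0.12 at 1 hr in experiment 1 (821 TPM, against 15.0 TPM at rest). With BRM014 at 60 min all 6 tested receptors fell, against 13.4% of all genes, and their median was -1.39, against 0.04 over all genes. Among them were Ccr1 (-1.88 ± 0.08), which binds Ccl3, Ccl5, Ccl6 and Ccl9, Ccrl2 (-1.47 ± 0.14) and Ccr3 (-1.35 ± 0.10). In Arid1a-/- cells at 1 hr 4 of 6 receptors fell and 1 rose, with 35.5% of all genes passing, and the list's median was -0.79, against 0.03 over all genes. Ccr1 was at -1.79 ± 0.19, Ccr2, the receptor of Ccl2, Ccl7 and Ccl12, at -1.42 ± 0.14 and Cx3cr1, the fractalkine receptor, at 1.23 ± 0.14.

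Of 11 other CC chemokine genes 3 or 4 were tested. Ccl8, another monocyte chemoattractant of this family, fell at 4 hr with BRM014 (-3.57 ± 0.40) and BRDK98 (-2.35 ± 0.40). Ccl17, which shares the receptor CCR4 with Ccl22, fell in Arid1a-/- cells at 4 hr (-1.43 ± 0.25). Among 22 upstream regulators, 2 rose and 13 fell in Arid1a-/- cells at 1 hr, with 35.5% of all genes passing. At 4 hr 1 rose and 13 fell, with 24.8% of all genes passing. The list's median was -0.32 at 1 hr and -0.36 at 4 hr, against 0.03 and 0.05 over all genes. Those that fell at 1 hr included the NF-kB subunit genes Rel (-1.27 ± 0.17) and Nfkb2 (-1.26 ± 0.10), and Cebpb, which encodes a myeloid transcription factor, fell at 1 hr (-1.21 ± 0.24) and 4 hr (-1.97 ± 0.24). With BRM014 at 60 min 3 rose and 12 fell, with 30.2% of all genes passing and a median of -0.44 against 0.04 over all genes, and those that fell included Rel (-2.62 ± 0.14), Tlr4 (-1.07 ± 0.15) and Ticam1 (-2.27 ± 0.10), the adaptor through which TLR4 induces interferon. With ACBI1 at 60 min 6 of 22 rose, including the interferon pathway gene Irf7 (2.30 ± 0.21), and none fell. The share of the list that passed was close to that of all genes, 25.2%, and the list's median was 0.01, against -0.14 over all genes. With BRDK98 at 60 min 4 rose and 7 fell, with 11.6% of all genes passing and a median of -0.16, against 0.08 over all genes, and Irf7 was one of those that fell (-0.82 ± 0.21). In Pbrm1-/- cells none of the 22 passed limma's test.

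Across the 45 libraries, the closest pairs among the members by Pearson's r of log2(TPM + 1), with each experiment's mean subtracted, were Ccl3 with Ccl4 (0.98) and Ccl2 with Ccl7 (0.97). Ccl6 had r between -0.02 with Ccl24 and -0.58 with Ccl5. Over 6149 other genes with a mean of at least 10 TPM, the gene most like Ccl3 and Ccl4 was Ccrl2 (0.98 for both), the one most like Ccl2 was Tnf (0.94) and the one most like Ccl7 was Marcksl1 (0.94). Ccl5 was closest to Ifi205 (0.97) and Gbp5 (0.96), both known as interferon-induced genes, and Ccl9 to Gpr85 (0.95). Ccl12 was closest to Hcar2 (0.92), Ccl22 to Cxcl16 (0.92), Ccl24 to Bmt2 (0.86) and Ccl6 to Nxpe5 (0.93). These correlations describe libraries that share experiments, stimuli and separately normalised tables, and carry no test.

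The authors' deposited table gives its own log2 fold changes and adjusted p-values. With BRDK98 at 4 hr all 10 members are negative and past 0.05 in the authors' deposited table, against 13.7% of all genes listed, and with BRM014 at 4 hr 9 are, also against 13.7%. With ACBI1 at 4 hr the authors' deposited table has 9 members negative and 1 positive, with 20% of all genes past 0.05. The expression column of the untreated 4 hr group in experiment 1 is repeated with equal values in all 24537 genes. Whether the authors' p-values for the compounds at 4 hr count that 1 library as separate replicates is not known. With Arid1a-/- at 4 hr of LPS the authors' deposited table has 6 members positive and 4 negative (10.9% of all genes). With Pbrm1-/- none is past 0.05 in the authors' deposited table (0.0448%). With BRM014 at 60 min 5 are negative in the authors' deposited table (2.96%).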

How the data were processed

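The authors' values were TPM per gene. Per the file headers, they counted reads over exons on both strands with HOMER (rna annotation of mm10, genes condensed) and deposited TPM, and tables of their own comparisons with log2 fold changes and adjusted p-values, made with HOMER's differential expression step. Per the submitters' processing notes, STAR 2.5.3a, HOMER and DESeq2 were used with mm10. Per the labels' protocols, libraries came from a stranded mRNA kit and were read as 50 bp single ends. The members and gene lists were chosen with earlier results of these data known.

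Among the expression columns, 1 matched no sample and was not used: its values equalled those of 1 used library in all 24537 genes. Reads recovered from TPM steps and gene lengths numbered 7015041 to 27527275 per library, and at least 99.3% of low values were whole within 0.1 read. Intervals and floors cover counting error only.

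limma 3.58.1 in R 4.3.3, with trend and robust moderation, was fitted to log2(TPM + 1) of all genes at 1 TPM or more in at least 2 libraries, 1 fit per experiment over all its groups (11531, 11798, 11044 and 11549 genes), on deposited and on median-ratio scaled TPM, with Benjamini-Hochberg adjustment over all genes. A gene was called when both adjusted p-values were under 0.05 with the same sign. All 10 members were tested in every comparison, and not all of them are named in each. The fits were tested on simulated data. Per-gene changes with time of treatment were tested as differences of differences. Genes of the pathway lists were named by the size of their change among those called with a mean of at least 5 TPM in 1 group, up to 4 per list and comparison; some genes of these lists are not reported here. Genes of like pattern were the 2 with the highest Pearson's r after each experiment's mean was subtracted. Alternatives were the pseudocount, the low filter, moderation, either scaling alone, a minimum change, limma voom on recovered reads, a replicate block and leaving out each library. Figures were drawn with matplotlib 3.10.9. Sequences are RefSeq's.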

Additional observations from a re-analysis of the deposited data

Results flagged for a closer look

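Effects that differed between time points, by a test of the difference itself in the limma fit, are given here as differences of log2 changes. In Arid1a-/- cells the effect at 4 hr minus that at 1 hr of LPS was 1.90 for Ccl12 and 1.15 for Ccl6.

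For the compounds the difference is the effect at 60 min minus that at 20 min of lipid A in experiment 4. With ACBI1, 3 members passed (18.5% of all genes): Ccl5 at 1.52, Ccl2 at -1.04 and Ccl6 at -0.73. Ccl5 differed by -0.16 ± 0.15 at 20 min and by 1.36 ± 0.15 at 60 min.

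With BRM014, 5 passed (13.3% of all genes): Ccl12 at -1.66, Ccl5 at -1.50, Ccl24 at -1.17, Ccl9 at -1.12 and Ccl7 at -0.74. With BRDK98, 8 passed (6.66% of all genes): Ccl5 at -2.62, Ccl4 at -2.12, Ccl12 at -1.97, Ccl7 at -1.82, Ccl2 at -1.49, Ccl9 at -1.38, Ccl24 at -1.07 and Ccl22 at -0.83. Ccl3 had been lowered by BRDK98 at 20 min (-1.08 ± 0.10) about as much as at 60 min (-0.96 ± 0.10), and its difference did not pass (0.12 ± 0.14).

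Leaving out single libraries moved these counts. With ACBI1, 5 members passed without either BRM014 library of 60 min. With BRM014, 3 passed without replicate 2 of the untreated 20 min cells, replicate 1 of the BRM014 cells at 20 min or replicate 1 of the untreated 60 min cells. With BRDK98, 5 passed without replicate 2 of the untreated 20 min cells. In Arid1a-/- cells 6 passed without either resting library.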

How the results depend on the processing

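Counts of members past the test are given here. With no filter on low values they were 5 for BRDK98 against ACBI1 at 4 hr and 0 for BRM014 at 20 min. Without trend and robust moderation BRM014 at 20 min had 0. On the deposited values alone they were 8 for 4 against 1 hr in experiment 1, 2 for BRM014 at 20 min and 5 for the difference of ACBI1 effects between times. On rescaled values alone ACBI1 at 20 min had 1. With limma voom on recovered reads they were 1 for ACBI1 at 20 min and 6 for the difference of Arid1a-/- effects, which was also 6 with the resting libraries left out. With a log2 change of at least 1 they were 3 for 4 against 1 hr in experiment 1, 3 for ACBI1 at 4 hr, 3 for BRDK98 against ACBI1 and 4 for BRDK98 against BRM014 at 4 hr, 2 for Arid1a-/- at 4 hr, 0 for BRM014 and 1 for BRDK98 at 20 min, 1 for ACBI1 and 5 for BRM014 at 60 min, 4 for BRM014 against ACBI1 at 60 min and 1 for the difference of ACBI1 effects. Other counts stayed within 1.5 times, and no member reversed.

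Leaving out 1 library at a time gave 9 to 9 for BRDK98 at 60 min, 8 to 8 for BRM014 at 4 hr, 6 to 8 for BRM014 at 60 min, 5 to 6 for ACBI1 at 4 hr, 7 to 8 for BRDK98 at 4 hr and 6 to 8 for Arid1a-/- at 1 hr. It gave 2 to 5 for ACBI1 at 60 min, 0 to 1 for ACBI1 at 20 min, 0 to 2 for BRM014 at 20 min, 2 to 4 for BRDK98 at 20 min, 3 to 8 for Arid1a-/- at 4 hr, 0 to 4 for Pbrm1-/-, 2 to 4 for 20 min of lipid A and 4 to 8 for BRDK98 against ACBI1 at 4 hr. For differences between times it gave 2 to 5 with ACBI1, 3 to 6 with BRM014, 5 to 8 with BRDK98 and 2 to 6 for Arid1a-/-. Of 199 member calls 144 were kept under every setting.

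The replicate numbers did not pair the libraries: correlations of same-numbered deviations ran between -0.24 and 0.24. With a replicate block the count was 6 for Arid1a-/- at 1 hr and 9 for BRDK98 at 60 min, and each other count stayed within 1.5 times. Rescaling moved the split of all genes with BRM014 at 4 hr from 5570 higher and 1889 lower as deposited to 3048 and 3489. Depth limits Ccl22 and Ccl24, which had few reads in several groups.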
